A study of Mus musculus with 4 samples.

Results

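The genes examined here code for chromatin modifiers and remodellers, the enzymes and complexes that write, erase and read histone marks or move nucleosomes. They were chosen by symbol alone: protein-coding genes whose names begin with Kmt2, Kdm, Setd or Smarc, or with Hdac, Sirt or Brd followed by a digit. The rule took 72 genes of 21866 protein-coding genes in the GENCODE annotation of the mouse build mm10. Kdm5d, on chromosome Y, was set aside because the tissue was female and no peak lay on that chromosome, which left 71 genes beside 21670 protein-coding genes on the autosomes and chromosome X. Of the 71, 8 were taken as H3K4 writers (Kmt2a, Kmt2b, Kmt2c, Kmt2d, Kmt2e, Setd1a, Setd1b and Setd7) and 5 as H3K4 erasers (Kdm1a, Kdm1b, Kdm5a, Kdm5b and Kdm5c), and 58 were the rest. The symbol rule also took Brd3os, which is named for the strand opposite Brd3 and not for a bromodomain.

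Trimethylation of histone H3 at lysine 4 (H3K4me3), a mark of active and poised promoters, was mapped by ChIP-seq, the sequencing of DNA that an antibody against the mark pulls down with its chromatin. The tissue was heart from female B6CASTF1/J mice aged 2 months, an F1 hybrid strain, with no treatment named. The 4 libraries were 2 technical replicates of each of 2 pools, G and H, and each pool combined 2 heart biosamples. Pools G and H carried the biological replicate numbers 1 and 2, but every label gave 1 donor record, so the labels do not show that the pools came from separate mice. There was no other condition, and differences below are between groups of genes, read in each pool. No test was made, because the genes of a family are not replicates of a condition.

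The deposited values were 4 peak lists: 1 from pool G (24826 peaks), 1 from pool H (21505 peaks), and 2 from both pools together, called replicated (24996 peaks) and pseudoreplicated (26412 peaks). The replicated list is the main one. The lists share reads, and 24037 peaks were identical in the replicated and pseudoreplicated lists, so the 4 are not independent measurements. No read depth is given in the labels or files used here. The labelled tissue was checked against marker genes: in all 4 lists, 8 of 8 cardiomyocyte, 6 of 6 endothelial and 5 of 5 fibroblast markers had a promoter peak, against 0 of 4 hepatocyte markers. Of 5 mural cell markers 4 had one in the replicated list, as did 2 of 4 neuron markers (0 in pool H) and 1 of 6 skeletal muscle markers (Ckm, the muscle creatine kinase). Of 6 immune markers, 1 had a promoter peak in pool G and 0 in pool H. These are bulk tissue values, so fewer cells that carry the mark and less mark per cell cannot be told apart.

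H3K4 methylation is laid down by SET-domain enzymes of the KMT2 and SETD1 families, which work in COMPASS complexes, and is removed by the flavin-dependent KDM1 enzymes and the JmjC-domain KDM5 enzymes. SMARC proteins form the SWI/SNF and ISWI remodelling complexes, HDAC and SIRT proteins remove acetyl groups, and bromodomain proteins bind acetylated lysines. Several of these genes are known in the heart: Kmt2d loss disturbs heart development, the class II deacetylases restrain hypertrophic gene programmes in cardiomyocytes, and Smarcd3 encodes the cardiac-enriched BAF60c subunit.

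CpG-rich DNA at a start is the sequence feature most closely tied to this mark, so 8 upstream sequences are printed, chosen to span the range of the family. Each is 250 bases ending just before the RefSeq start (RefSeq sequences, GRCm38.p6), 5′ to 3′ on the gene's strand, with every CpG in capitals. Kmt2c and Kmt2d are shown as writers with strong and wide domains, Kdm1a as the eraser with the narrowest domain, and Kdm6a as the stronger of the X-linked demethylases. Smarcc2 had the highest fold enrichment of the family. Hdac4 had peaks on both sides of an uncovered start. Smarca1 and Hdac9 were among the weakest. The Kmt2c sequence is chr5:25498784-25499033 (minus strand), with 48 CpGs. The Kmt2d sequence is chr15:98871206-98871455 (minus), with 26. The Kdm1a sequence is chr4:136602724-136602973 (minus), with 21. The Kdm6a sequence is chrX:18162325-18162574 (plus), with 15. The Smarcc2 sequence is chr10:128458986-128459235 (plus), with 40. The Hdac4 sequence is chr1:92180342-92180591 (minus), with 23. The Smarca1 sequence is chrX:47892614-47892863 (minus), with 6. The Hdac9 sequence is chr12:34528890-34529139 (minus), with 2.
Kmt2c: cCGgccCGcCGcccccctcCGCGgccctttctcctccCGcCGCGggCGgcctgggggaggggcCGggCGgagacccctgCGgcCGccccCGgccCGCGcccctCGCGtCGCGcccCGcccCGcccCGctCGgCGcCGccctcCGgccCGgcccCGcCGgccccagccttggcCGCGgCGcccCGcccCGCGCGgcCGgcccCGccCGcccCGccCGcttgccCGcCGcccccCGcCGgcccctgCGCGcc
Kmt2d: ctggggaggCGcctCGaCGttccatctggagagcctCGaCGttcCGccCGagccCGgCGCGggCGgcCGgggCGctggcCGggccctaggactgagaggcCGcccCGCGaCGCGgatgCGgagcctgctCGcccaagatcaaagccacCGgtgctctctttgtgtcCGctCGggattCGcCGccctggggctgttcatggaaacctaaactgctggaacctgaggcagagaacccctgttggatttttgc
Kdm1a: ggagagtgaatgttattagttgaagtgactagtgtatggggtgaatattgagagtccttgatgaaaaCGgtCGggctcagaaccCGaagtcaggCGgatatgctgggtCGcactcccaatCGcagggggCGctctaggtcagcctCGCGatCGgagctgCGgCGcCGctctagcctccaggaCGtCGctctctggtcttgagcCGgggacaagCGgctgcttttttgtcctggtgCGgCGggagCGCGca
Kdm6a: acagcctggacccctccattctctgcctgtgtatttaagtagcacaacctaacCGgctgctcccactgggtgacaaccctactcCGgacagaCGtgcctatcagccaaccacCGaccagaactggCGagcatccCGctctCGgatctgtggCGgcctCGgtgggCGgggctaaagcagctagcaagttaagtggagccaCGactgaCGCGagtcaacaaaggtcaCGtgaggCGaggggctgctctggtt
Smarcc2: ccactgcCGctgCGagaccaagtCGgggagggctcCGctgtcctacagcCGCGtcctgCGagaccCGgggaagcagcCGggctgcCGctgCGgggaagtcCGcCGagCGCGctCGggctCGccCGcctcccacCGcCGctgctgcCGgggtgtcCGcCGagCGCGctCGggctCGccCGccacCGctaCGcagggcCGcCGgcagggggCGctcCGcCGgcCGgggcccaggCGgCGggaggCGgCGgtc
Hdac4: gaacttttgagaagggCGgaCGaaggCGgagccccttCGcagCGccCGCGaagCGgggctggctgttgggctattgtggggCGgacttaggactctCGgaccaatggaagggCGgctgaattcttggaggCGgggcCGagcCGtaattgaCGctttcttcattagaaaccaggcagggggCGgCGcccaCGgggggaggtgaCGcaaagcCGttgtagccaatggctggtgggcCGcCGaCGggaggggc
Smarca1: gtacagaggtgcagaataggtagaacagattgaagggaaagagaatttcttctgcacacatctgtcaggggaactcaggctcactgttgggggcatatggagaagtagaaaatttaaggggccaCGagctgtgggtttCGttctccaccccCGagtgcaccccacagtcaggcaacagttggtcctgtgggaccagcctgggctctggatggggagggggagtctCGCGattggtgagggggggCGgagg
Hdac9: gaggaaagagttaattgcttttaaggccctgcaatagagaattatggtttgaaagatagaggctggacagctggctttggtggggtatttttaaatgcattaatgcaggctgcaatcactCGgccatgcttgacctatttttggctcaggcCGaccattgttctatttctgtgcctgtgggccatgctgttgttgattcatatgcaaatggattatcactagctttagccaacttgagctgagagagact
The Kmt2c stretch was 91.6% G and C, and the Hdac9 stretch 43.6%. All 250 bases of the Kmt2d sequence lay inside a peak of the replicated list, 37 bases of the Kmt2c sequence did, and 0 bases of the Smarca1 sequence did, since the Smarca1 peak began downstream of this start.

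Each start of a coding transcript was given a window reaching 1000 bp to both sides, its promoter, and a gene counted as occupied when any peak touched such a window. In the replicated list 70 of the 71 chromatin genes were occupied, against 63.0% of all protein-coding genes (13657 of 21670). The same 70 genes were occupied in pool G, in pool H and in the pseudoreplicated list, where the background was 63.4%, 61.3% and 63.4%, and 61.1% of all genes were occupied in every list. All 13 H3K4 writers and erasers and 57 of the 58 others were occupied, so that writers and erasers could not be set apart from the rest by occupancy. The exception was Kdm6b, the H3K27 demethylase JMJD3.

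Promoter CpG content moved with occupancy. High-CpG genes were those with a start window whose CpG count was at least 0.6 of the count its base composition predicts and whose G and C share reached 0.5. Of the chromatin genes 52 of 71 had one, against 33.7% of all genes. All 52 were occupied, against 96.7% of all high-CpG genes (7051 of 7294), so high-CpG members stood near their own background. Of the 19 low-CpG members 18 were occupied, against 46.0% of all low-CpG genes. Among those 18 were Hdac1, a class I deacetylase, Sirt2, a cytoplasmic deacetylase, Kdm4a, an H3K9 and H3K36 demethylase, and Smarcd1, the BAF60a subunit. The low-CpG members had a median CpG ratio of 0.49. Brd8 (0.72) and Kdm4d (0.70) were low-CpG through a G and C share of 49.4% alone. Low-CpG members and all low-CpG genes were not matched on the ratio itself, so the class is a coarse background. All 13 writers and erasers were high-CpG, as were 39 of the 58 others.

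Of the 71 genes, 57 had an entry in the RefSeq promoter table, with 74 promoters of 300 bases (250 before and 50 after the start). The GC box GGGCGG stood on either strand in 68.9% of those 74 promoters, against 47.9% of 20054 promoters in the table. Of the 9 promoters of writers and erasers 5 held it (55.6%). High-CpG genes made up 73.2% of the members, against 33.7% of all genes, and no motif share was computed for high-CpG genes alone. The CCAAT box, searched as CCAAT, was in 32.4% of the 74, against 37.9% of all. The TATA box, searched as TATAAA, was in 4.05% of the 74, against 12.1% of all. In none of the chromatin gene promoters did matches to different motifs overlap. Hdac4 held both the GC box and the CCAAT box, and the Hdac9 sequence above held none of the 3 motifs.

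The strength of the mark was read from the signal value of each peak, taken here as a fold enrichment over a control, and a gene was given its highest promoter peak. A gene with more starts has more promoter peaks to take it from. Chromatin genes had a median of 3 starts, against 2 for all protein-coding genes and 2 for high-CpG genes. The part of the number of starts in occupancy, CpG class, strength and width was not tested. The median fold enrichment of the 70 occupied chromatin genes was 19.1, against 15.3 for all occupied genes and 16.8 for occupied high-CpG genes. The 52 high-CpG members alone had 19.6, and the 18 occupied low-CpG members 13.6. In pool G the medians were 21.4 for chromatin genes and 18.2 for all genes, and in pool H they were 15.5 and 12.9. In the replicated list 47 of the 70 chromatin genes lay above the median of all occupied genes, where the background was 50.0% by construction. The counts were 51 of 70 in pool G (background 50.0%) and 49 of 70 in pool H (background 49.8%). In all 3 of these lists, 45 lay above and 16 below. The share of all genes above in all 3 was not computed, and the lists share reads. The spread was wide, from 5.68 at Hdac9 to 28.4 at Smarcc2.

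**Figure D1:**
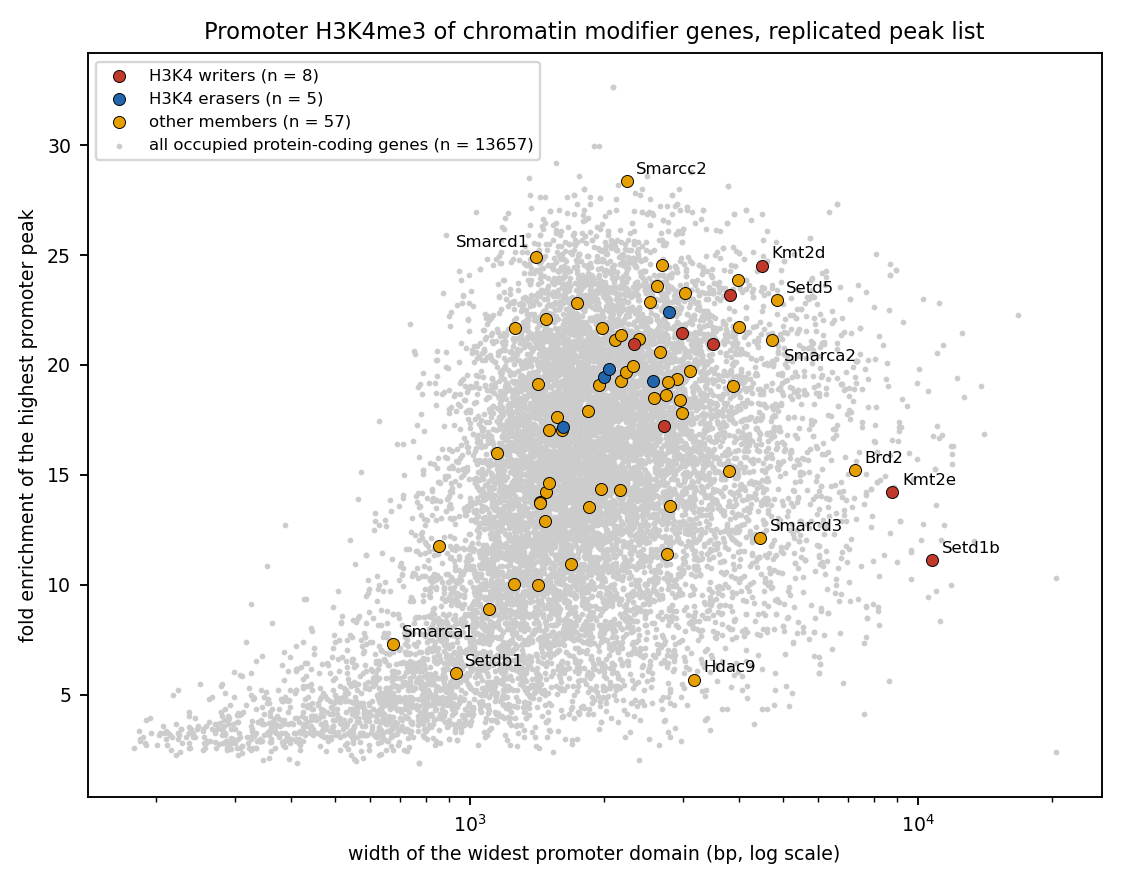
Fold enrichment of the highest promoter peak (y axis) against width of the widest promoter domain in bp (x axis, log scale) in the replicated list, with 1 point per gene: 8 H3K4 writers in red, 5 erasers in blue, 57 other chromatin genes in orange, and all 13657 occupied protein-coding genes in grey. Setd1b and Kmt2e lie far to the right at 10795 and 8791 bp with fold enrichments of 11.1 and 14.2, Smarcc2 is the highest coloured point at 28.4, and Hdac9, Setdb1 and Smarca1 are the lowest.

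The width of the mark was read from joined peaks. Neighbouring peaks separated by 1000 bp or less formed 1 domain, and the widest domain touching a promoter was taken for each gene. Occupied chromatin genes had a median domain of 2279 bp, against 1799 bp for all occupied genes and 2120 bp for occupied high-CpG genes. The 52 high-CpG members alone had 2677 bp, and the 18 occupied low-CpG members 1453 bp. For all occupied chromatin genes the medians were 2399 bp in pool G, against 1892 bp for all genes, and 2201.5 bp in pool H, against 1680 bp. Of the 70, 48 were wider than the median of all occupied genes in the replicated list (background 50.0%). In that list and in both pools, 47 were wider and 20 narrower, and the share of all genes wider in all 3 was not computed. Among the widest 5% of occupied genes, from 4482.4 bp up, were 6 of the 70 (8.57%, background 5.0%): Kmt2d, Kmt2e, Setd1b, Setd5, Smarca2 and Brd2. Kmt2d left this class in pool H, where its 3926 bp fell just under the bound of 3953.8 bp, where the background was also 5.0%. Kdm2a and Smarcd3 entered it there, so that pool H held 7. The other 5 stayed in it in all 4 lists, with a background of 5.01% in pool G.

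The 8 H3K4 writers had the wider domains, with a median of 3653 bp, against 2048 bp for the 5 erasers and 2177 bp for the 57 other occupied members. In pool G the medians were 3665.5 bp for writers, 2096 bp for erasers and 2369 bp for the others. In pool H they were 3637 bp, 2036 bp and 2120 bp. Writers ran from 2324 to 10795 bp and erasers from 1615 to 2783 bp, so the groups overlapped, with Setd1a and Kmt2b inside the range of the erasers. All 8 writers and 4 of 5 erasers were wider than the median of all occupied genes in the replicated list and in both pools, the exception being Kdm1a. The background was 50.0% in each list alone, and the share of all genes wider in all 3 was not computed. All 13 were high-CpG, against 39 of the 58 others. Occupied high-CpG genes had median widths of 2120 bp (replicated), 2231 bp (pool G) and 1980 bp (pool H). The erasers lay below this in the first 2 lists. The part of CpG class in these widths was not tested. Fold enrichment kept no one order across the lists: its median was 21.0 for writers, 19.5 for erasers and 18.5 for the others in the replicated list. In pool G the medians were 25.2, 23.7 and 21.2, but in pool H the writers had 14.2, below the 17.1 of erasers and the 15.3 of the others.

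**Figure D2:**
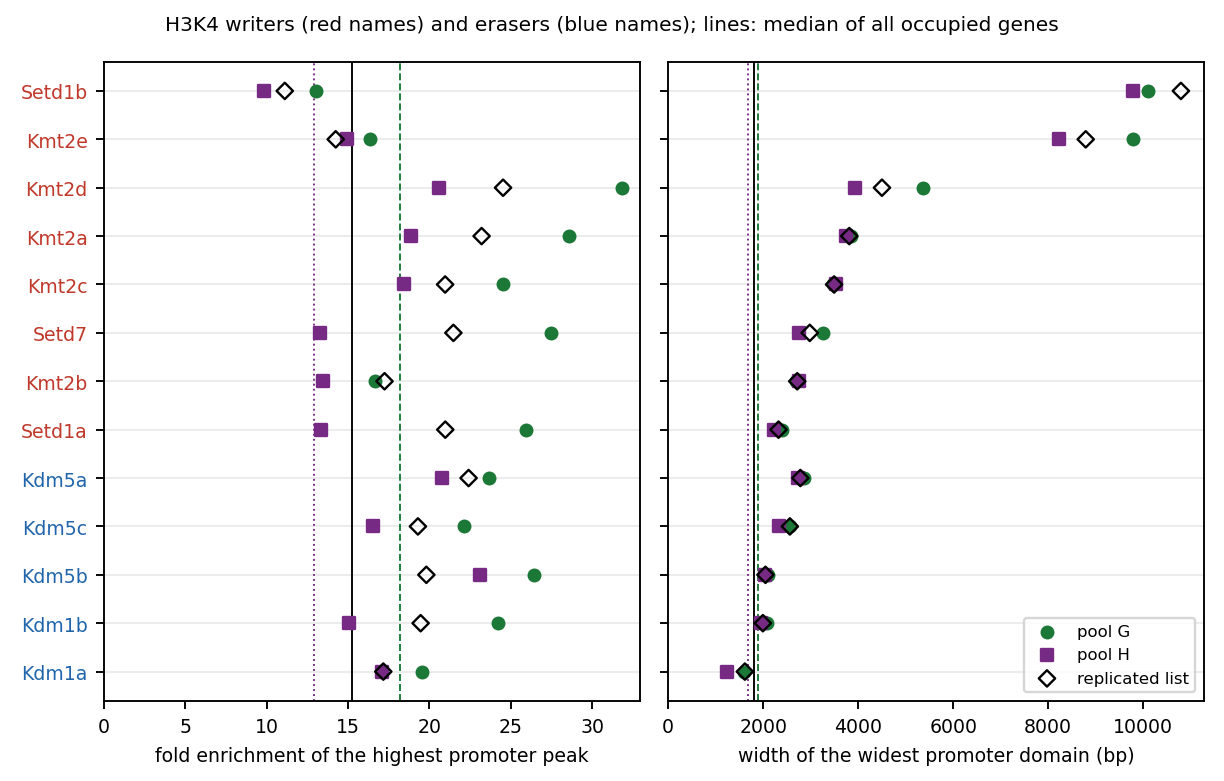
H3K4 writers (red names) and erasers (blue names), with fold enrichment of the highest promoter peak on the left and width of the widest promoter domain in bp on the right, for pool G (circles), pool H (squares) and the replicated list (open diamonds); vertical lines are the medians of all occupied genes in each list (pool G dashed, pool H dotted, replicated solid). Setd1b (9795 to 10795 bp) and Kmt2e (8234 to 9783 bp) lie far to the right of the other 11 genes in width but not in fold enrichment.

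The COMPASS enzymes came in pairs. Setd1a and Setd1b, the main enzymes for trimethyl H3K4 in mammalian cells, lay at opposite ends. Setd1b had a domain of 10100 bp (pool G) and 9795 bp (pool H), and 10795 bp in the replicated list, the widest of all 71 genes. Setd1a had 2392 bp (pool G) and 2228 bp (pool H), and 2324 bp in the replicated list, the narrowest of the writers. The order turned round for strength: fold enrichment was 13.0 in pool G and 9.80 in pool H at Setd1b, and 25.9 and 13.3 at Setd1a. Setd1b was below the median of all occupied genes in both pools, the lowest of the 13 writers and erasers, and Setd1a was above it in both. Of the Setd1b domain 8046 bp lay upstream of the start and 2749 bp downstream, and the starts of 3 non-coding genes (4932422M17Rik, AI480526 and Gm38102) lay in it or within 1000 bp of it.

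Kmt2a (MLL1) and Kmt2b (MLL2), the pair that works with menin, had domains of 3813 and 2717 bp in the replicated list. Kmt2a measured 3856 bp (pool G) and 3740 bp (pool H), with fold enrichments of 28.6 and 18.9. Kmt2b measured 2686 bp (pool G) and 2755 bp (pool H), with fold enrichments of 16.6 and 13.5. Kmt2a thus had the higher fold enrichment and the wider joined domain in both pools. The width order rested on joining 2 Kmt2a peaks across a gap. The wider of these peaks was narrower than the single Kmt2b peak: 1886 against 2686 bp for pool G, and 1823 against 2755 bp for pool H. In the replicated list the Kmt2a peaks ran from -2003 to -233 bp and from -22 to 1809 bp. Positions are counted from the start, with negative values upstream.

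Kmt2c (MLL3) and Kmt2d (MLL4), the H3K4 monomethyltransferases of enhancers, were both strong and wide. Kmt2d had the highest fold enrichment of the writers, 31.8 in pool G and 20.6 in pool H, and 24.5 in the replicated list. Its domain was 5360 bp in pool G, 3926 bp in pool H and 4501 bp in the replicated list, where a peak of 3946 bp was joined with 1 of 244 bp. Kmt2c had fold enrichments of 24.5 in pool G and 18.4 in pool H and domains of 3475 and 3534 bp. Like Kmt2a, it had 2 peaks, with its start inside the downstream one. The gap between them lay upstream of the start, from -264 to -50 bp in the replicated list, and took in most of the printed CpG-dense sequence.

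Kmt2e (MLL5), which carries a SET domain without established methyltransferase activity, had the second widest domain, 9783 bp (pool G) and 8234 bp (pool H). In the replicated list its 8791 bp were 1 unbroken peak, with 4033 bp upstream and 4758 bp downstream of the start. Its fold enrichment was 16.4 in pool G, under that pool's median of 18.2, and 14.9 in pool H, over that pool's median of 12.9. Setd7, an H3K4 monomethyltransferase that also acts on other proteins, had 3251 bp (pool G) and 2763 bp (pool H). Its fold enrichment was 27.5 in pool G, at the 94.5 percentile of occupied genes there, and 13.3 in pool H, at the 53.2 percentile. With Kmt2e and Setd7 moved to the rest, the median width of writers and erasers together was 2717 bp, against 2783 bp with them.

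Among the erasers, the KDM5 enzymes remove trimethyl and dimethyl H3K4. Kdm5a had the widest domain of the erasers, 2862 bp (pool G) and 2740 bp (pool H), and a start of the coding gene Ccdc77 lay in it or within 1000 bp of it. Its fold enrichment was 23.7 in pool G and 20.7 in pool H. Kdm5b had 26.5 in pool G and 23.1 in pool H, the highest of the erasers in each pool but not in the replicated list, where Kdm5a had 22.4 and Kdm5b 19.8. The Kdm5b domains were 2096 bp (pool G) and 2036 bp (pool H). Kdm5c, on the X chromosome, had 22.1 in pool G and 16.6 in pool H, with domains of 2560 and 2343 bp.

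The KDM1 enzymes remove dimethyl and monomethyl but not trimethyl H3K4. Kdm1a (LSD1) had the narrowest domain of the 13 genes, 1590 bp (pool G) and 1235 bp (pool H), with fold enrichments of 19.5 and 17.1. Almost the whole Kdm1a domain lay inside the gene: 1533 bp downstream of the start and 82 bp upstream. Kdm1b (LSD2) had domains of 2080 bp (pool G) and 1946 bp (pool H) and fold enrichments of 24.2 and 15.1. Kdm1b shared its domain with Tpmt, a coding gene on the opposite strand, so the mark there cannot be given to Kdm1b alone.

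**Figure D3:**
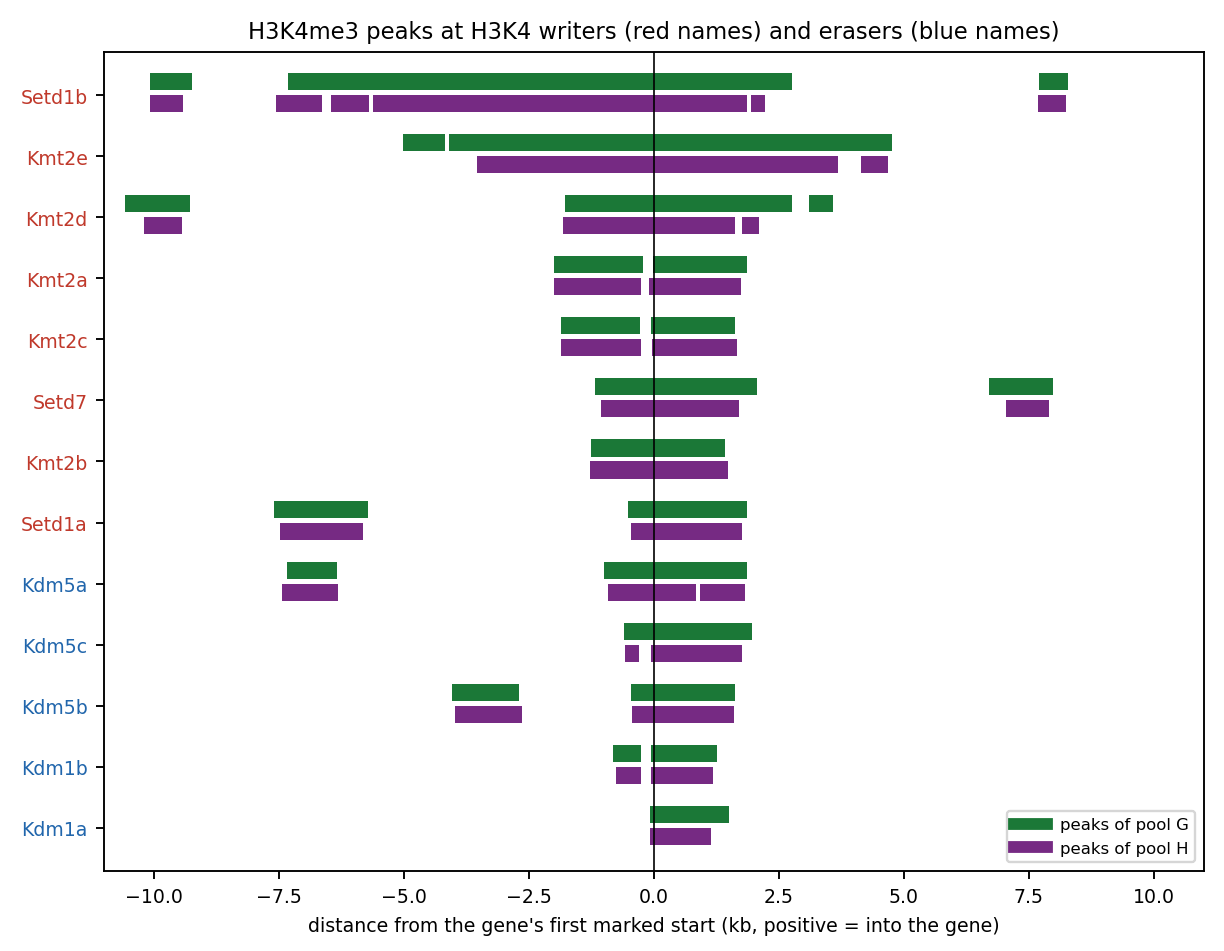
Peaks of pool G (green) and pool H (purple) around the first marked start of each H3K4 writer (red names) and eraser (blue names), in kb with positive values running into the gene. The promoter peaks of Setd1b lie mainly upstream, those of Kmt2e on both sides, and those of the 5 erasers mostly downstream; separate peaks farther out are drawn but were not counted as promoter domain.

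The placement of the domains about the start was read in the replicated list only. Genes whose domain held no other coding start within 1000 bp were compared, since only there does the direction belong to 1 coding gene. For the 8 writers, all of them alone in this sense, a median of 54.1% of the domain lay downstream, against 78.5% for the 3 such erasers and 65.4% for the 46 such other members. The figure was 71.0% for the 10951 such genes of the genome. The median upstream part was 1818 bp in writers and 441 bp in erasers, against 497 bp in all such genes. By gene it ran from 479 bp at Setd1a to 8046 bp at Setd1b in writers.

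The start of a non-coding gene lay in or within 1000 bp of the domain at 7 of 8 writers, 0 of 5 erasers and 10 of 57 other members, 17 of 70 in all, against a background of 16.7%. Setd1a was the writer without one. At Kmt2a (AC061963.1), Kmt2b (Mir3569), Kmt2c (4831440E17Rik), Kmt2e (5031425E22Rik) and Setd1b (AI480526) that start pointed away from the writer within 1000 bp of its own start. Wider domains reach more starts, and the part of width in this count was not tested. Another coding start lay in or near the domain at 0 of 8 writers and 13 of 70 members, against a background of 19.8%, and a divergent coding start at 12 of 70, against 13.2%.

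The other demethylases of the Kdm family, 11 of 12 occupied, had a median fold enrichment of 19.2 and a median width of 2753 bp. Kdm2a, an H3K36 demethylase that binds unmethylated CpGs, was the strongest in the replicated list, with 30.5 in pool G and 20.5 in pool H, and domains of 4089 and 3968 bp. Kdm4a exceeded it in pool H, at 22.1. Kdm6a (UTX), the X-linked H3K27 demethylase of the Kmt2c and Kmt2d complexes, had 24.4 in pool G and 19.0 in pool H, and domains of 4116 and 3909 bp. The widths of Kdm6a and Kdm2a, 4004 and 3978 bp in the replicated list, changed order in pool H. The weakest were Kdm4d, at 10.9 in the replicated list, in a domain shared with Cwc15, and Kdm2b, at 11.4. The other Setd genes, all 7 occupied, had medians of 19.3 and 2177 bp. Setd5, which carries a SET domain, had 28.5 in pool G and 17.5 in pool H and a domain of 4846 and 4837 bp, next to the non-coding Gt(ROSA)26Sor gene that starts in it on the other strand. Setd2, which writes trimethyl H3K36, had 27.7 in pool G and 18.8 in pool H. Setd3, an actin histidine methyltransferase, had the second widest domain of this group, 2955 bp in the replicated list, shared with Ccnk.

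All 13 Smarc genes were occupied, with medians of 19.7 and 2231 bp, and 11 of 13 lay above the median fold enrichment of all occupied genes in each of the replicated, pool G and pool H lists. Smarcc2 (BAF170), a core scaffold of SWI/SNF, had the highest fold enrichment of all 71 genes in each of these lists, 32.9 in pool G and 23.7 in pool H. Smarcd1 (BAF60a) was next in the replicated list at 24.9, with 31.2 in pool G and 18.3 in pool H. Its domain was 3418 bp in pool G but 1354 bp in pool H and 1408 bp in the replicated list, so its width was not settled. The catalytic subunits Smarca4 (BRG1) and Smarca2 (BRM) differed in width more than in strength: Smarca2 had 5074 bp (pool G) and 4624 bp (pool H), and Smarca4 2369 bp and 2192 bp. Their fold enrichments in the replicated list were 21.1 at Smarca2 and 19.7 at Smarca4. Smarcd3 (BAF60c) had a wide domain, 4508 bp (pool G) and 4505 bp (pool H), of modest strength, 16.2 and 12.1.

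The 11 Hdac genes had a median fold enrichment of 14.2 in the replicated list, under the 15.3 of all occupied genes. Their median width was 2112 bp, and 4 of 11 were above the median fold enrichment (background 50.0%). Of the 11 Hdac genes 5 were high-CpG, and the part of CpG class in these medians was not tested. In pool G the Hdac median was 18.3, just over the 18.2 of all occupied genes, with 6 of 11 above (background 50.0%). In pool H it was 12.7, just under 12.9, with 4 of 11 above (background 49.8%). The class IIa enzymes Hdac4, Hdac5 and Hdac7 were wide: 3023, 3878 and 3796 bp in the replicated list. Hdac4 had a fold enrichment of 29.9 in pool G and 16.4 in pool H, and the class I enzyme Hdac2 had 23.5 and 18.6. Hdac4 was thus the strongest in pool G and Hdac2 in pool H. The fourth class IIa gene, Hdac9, had 7.52 in pool G and 7.05 in pool H, in domains of 3490 and 2273 bp at a CpG-poor promoter (CpG ratio 0.28). This promoter lies at an inner start. At the outer end of the gene, the RefSeq promoter held a TATA box, and 0 of its 250 upstream bases lay in a peak of the replicated list. Hdac9 was the weakest member in the replicated list and in pool G, while Setdb1 and Smarca1 were weaker in pool H. Inside the Hdac9 gene, away from any coding start, there were 9 further peaks in the replicated list, the most of any member. The gene spans 869516 bp, against a median of 40991 bp for the 71 members. The count was not set against length or against all genes.

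The 7 Sirt genes, the NAD-dependent deacylases, had the lowest medians of the families, 13.8 and 1438 bp, and 2 of 7 were above the median fold enrichment of all occupied genes in the replicated list. These were Sirt5, a mitochondrial desuccinylase, with 22.4 in pool G and 15.3 in pool H, and Sirt2, with 21.2 and 16.5 in a domain shared with Nfkbib. Sirt1, a nuclear deacetylase, and Sirt3, the main mitochondrial deacetylase, had the widest domains, 2795 and 2167 bp in the replicated list. The Sirt3 domain was shared with Psmd13. High-CpG promoters were found at 3 of the 7 Sirt genes, against 52 of the 71 members. In the replicated list occupied low-CpG members had medians of 13.6 and 1453 bp, and high-CpG members 19.6 and 2677 bp. The part of CpG class in the order of the families was not tested.

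The 8 Brd genes had medians of 20.0 and 2642.5 bp, and 6 of 8 were above the median fold enrichment. Brd3, whose protein binds acetylated histones at active genes, had 27.1 in pool G and 22.4 in pool H. Brd2, a related reader of acetylated histones, was weaker, 19.1 and 12.5, but its domain was 7150 bp (pool G) and 7130 bp (pool H), exceeded among the 71 by Setd1b and Kmt2e. The Brd2 domain also held or neighboured a start of H2-DMa, a coding gene. Brd7, a subunit of the PBAF form of SWI/SNF, had 2909 bp in the replicated list.

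**Figure D4:**
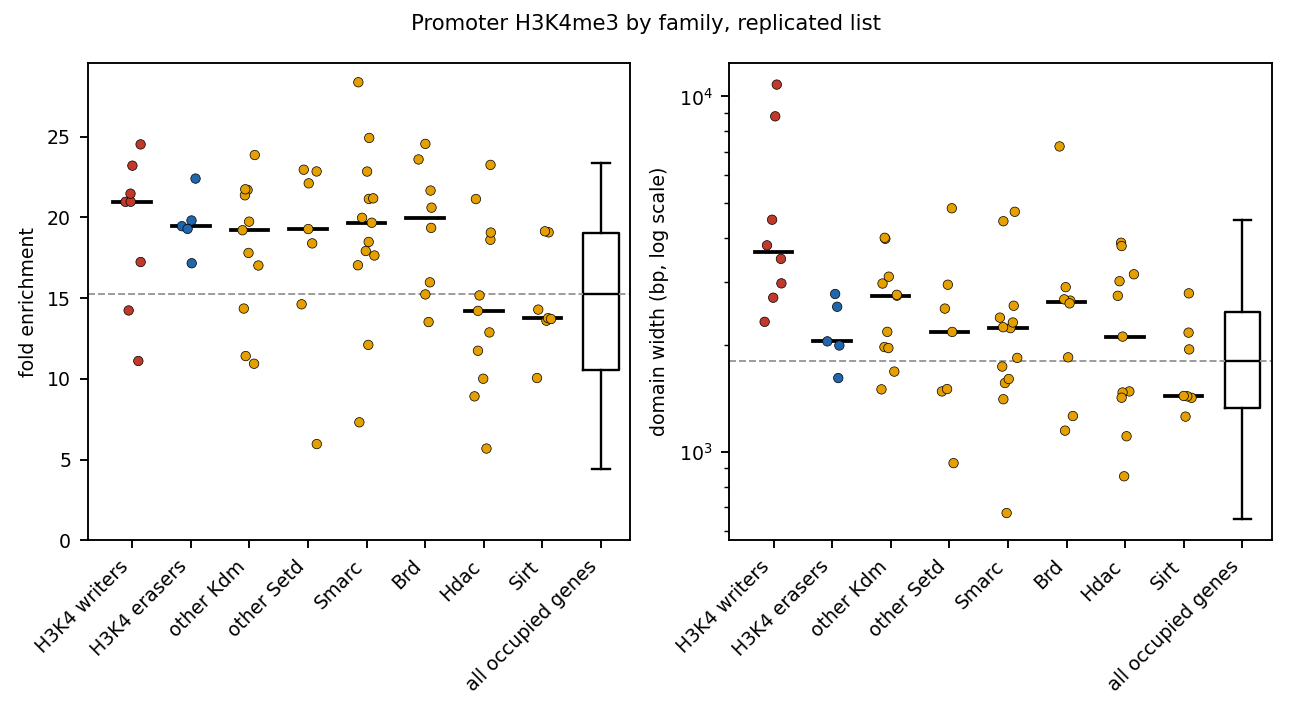
Fold enrichment (left) and domain width in bp (right, log scale) of each occupied chromatin gene by family in the replicated list, with 1 point per gene and a black bar at each family's median; the box at the right end gives the quartiles of all 13657 occupied genes with whiskers at the 5th and 95th percentiles, and the dashed line their median. Medians of the Hdac and Sirt genes (14.2 and 13.8) lie below the dashed line at 15.3, the medians of the other groups lie above it, and writers have the highest median width at 3653 bp.

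The weakest promoters after Hdac9, named after their values were seen, were Setdb1, an H3K9 methyltransferase, and Smarca1 (SNF2L), an ISWI remodeller. Setdb1 had fold enrichments of 7.57 in pool G and 4.43 in pool H and domains of 964 and 905 bp, although its promoter was high-CpG. Smarca1 had 9.85 in pool G and 5.21 in pool H and domains of 906 and 635 bp. Both lay far below the medians of both pools.

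The X chromosome carried 5 of the chromatin genes, all occupied, against 44.4% of all X-linked protein-coding genes (421 of 948). The median fold enrichment of the 421 was 10.4, lower than the 15.3 of all occupied genes. Kdm6a at 21.7 and Kdm5c at 19.3 ranked 2 and 3 among those 421 in the replicated list. Hdac6, a tubulin deacetylase, ranked 224 at 10.01, Hdac8, a class I deacetylase, 276 at 8.92, and Smarca1 328 at 7.31. Kdm5c and Kdm6a are known to escape X inactivation in female cells. Of the 5 genes 2 were high-CpG, with Kdm5c among them and Hdac6 and Hdac8 not. Neither escape nor CpG class was tested as a cause of these ranks.

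Separate promoter domains at different starts were found at 7 of 70 genes, against a background of 6.44%. In Sirt1 the peak near the first start had a fold enrichment of 15.99 in pool G and 11.4 in pool H, and that at the inner start 16.3 and 6.21. The stronger of the pair thus differed between pools. In Hdac5 the outer promoter had 21.2 in pool G and 16.2 in pool H, and the inner one 14.6 and 10.1. Kdm2a likewise had 30.5 and 20.5 at its outer promoter, and 15.2 and 8.06 at its inner one. Smarca2, with 25 annotated starts, had 24.7 in pool G and 18.3 in pool H at its outer promoter, and 19.3 and 12.7 at one deep inside the gene. Smarcd3 showed the other order, with 4.17 and 4.24 at the outer start and 16.2 and 12.1 at the inner one. Kdm2b had 3 promoter domains, the strongest of them at the outer start in pool G (17.3) and at the innermost start in pool H (12.3). Smarcc1 (BAF155), named after its values were seen, had 16.7 and 15.0 at the outer start and 18.4 and 14.8 at the inner one.

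At Hdac4 and Kdm7a, a demethylase of H3K9 and H3K27, no start lay inside a peak of the replicated list, which held for 6.40% of all occupied genes. Hdac4 had 1 peak from -1217 to -190 bp of its start, with a fold enrichment of 23.3, and 1 from 261 to 1805 bp, with 15.6. In pool G the upstream Hdac4 peak reached 165 bp past the start, so that the start was covered there, and in pool H it was not. Kdm7a had 1 peak from -961 to -118 bp, with 19.7, and 1 from 29 to 2151 bp, with 16.1. At both genes the start stood in a gap between 2 strong peaks.

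Kdm6b, the H3K27 demethylase without a promoter peak, was not an unmarked gene. GENCODE gives it 1 coding start, at position 69413675 of chromosome 11 on the minus strand, and the nearest peak lay 1375 bp away in the replicated list, 1385 bp (pool G) and 1485 bp (pool H). A peak of 4124 bp with a fold enrichment of 16.4 (69408114 to 69412237) lay inside the gene in the replicated list, with counterparts of 16.3 in pool G and 14.2 in pool H. Upstream, a peak of 1509 bp had 16.9, and its counterparts had 19.9 in pool G and 12.3 in pool H. RefSeq gives Kdm6b 10 mRNA starts, of which 6 lay inside a peak in the replicated list, in pool G and in pool H. With RefSeq starts in place of GENCODE's, 71 of 71 chromatin genes were occupied in each of the 4 lists, against 65.2% of 20392 coding genes matched by symbol in the replicated list.

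**Figure D5:**
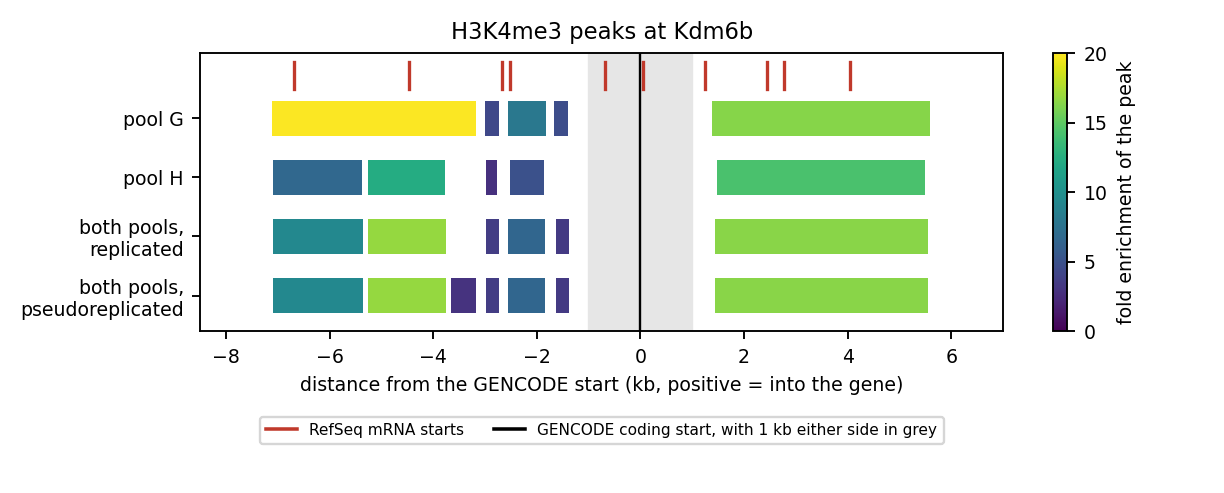
H3K4me3 peaks around the GENCODE start of Kdm6b (black line, with 1 kb either side in grey) in each of the 4 lists, in kb with positive values running into the gene, coloured by fold enrichment from 0 to 20; red ticks are the 10 RefSeq mRNA starts. In every list the grey window is empty, 1 wide peak lies inside the gene and several lie upstream, and 6 of the 10 ticks stand over peaks of the replicated list.

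The partners of these enzymes, in 8 lists, were marked almost throughout. The background to these counts was 61.1% of all genes occupied in every peak list, and 96.7% of high-CpG genes in the replicated list. All 15 partner subunits of the COMPASS complexes, 10 of them high-CpG, were occupied in all 4 lists, with medians of 17.3 and 2089 bp. Among them Ash2l, a core subunit, was the strongest at 25.7, and Pagr1a, a partner of the Kmt2c and Kmt2d complexes, the widest at 3984 bp in a domain shared with Mvp and Gm42742. The median width of the 8 writers was thus larger than that of their 15 partners in the replicated list, in pool G (3665.5 and 2196 bp) and in pool H (3637 and 2031 bp). All 13 readers of H3K4me3, 12 of them high-CpG, were occupied, with medians of 16.3 and 3070 bp, and all 13 were wider than the median of all occupied genes in the replicated list, as were 12 of 13 in pool H (background 50.0% in both). Taf3, the TFIID subunit that binds the mark, was the strongest reader at 25.6, and Ing1 the widest at 4297 bp.

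All 18 other lysine methyltransferases, 10 acetyltransferases, 23 Polycomb group genes and 15 deacetylase corepressors were occupied in all 4 lists. High-CpG promoters were found at 14 of the 18 methyltransferases, 7 of the 10 acetyltransferases, 21 of the 23 Polycomb group genes and all 15 corepressors, so the high-CpG genes of these lists, like those of the members, stood near their own background. The strongest methyltransferase was Kmt5b, an H4K20 enzyme, at 25.5, and the widest Nsd1, an H3K36 enzyme, at 5106 bp. Of the acetyltransferases, Kat7 was the strongest at 23.4 and Kat6a the widest at 5107 bp, though Kat6a measured 4606 bp (pool G) and 2573 bp (pool H). Mtf2, a PRC2 accessory factor, reached 26.5, and Pcgf2, a PRC1 subunit, 5966 bp, with 6141 bp in pool G but 2648 bp in pool H. The corepressor Sin3b reached 29.2, above every chromatin gene chosen by symbol, and its paralogue Sin3a had the widest domain of that list, 6222 bp.

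Of 17 SWI/SNF subunits outside the Smarc family, 15 of them high-CpG, 16 were occupied. Actl6b, the subunit known from the neuronal form of the complex, had no promoter peak in any list. Dpf3, a subunit known in heart and muscle development, was the strongest of the 16 at 21.6, and Arid2, of the PBAF form, the widest at 7295 bp. All 14 CHD and INO80 remodellers, 12 of them high-CpG, were occupied in the replicated list, led by Ep400 at 24.6 and, in width, Chd2 at 5727 bp. Chd5, known mainly from brain and testis, had a single peak of 258 bp at 3.55 in the replicated list and none in pool H.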

How the data were processed

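H3K4me3 chromatin immunoprecipitation sequencing of mouse heart gave 4 libraries from 2 pools, size-selected at 200 to 600 bp by a frozen-tissue method, per the labels. The authors deposited 4 narrowPeak lists on mm10, from pool G, from pool H and 2 from both pools. Technical replicates of a pool share 1 alignment, so no value per library existed. Which caller made the peaks, in which version and at what threshold, is not given in the sources used here. A peak's signal value was deposited by the authors without a column name and was taken, as an assumption, for a fold enrichment, that is a ratio over a control sample. Each peak's -log10 q value is the authors' as well, and q exceeded 0.05 at 667 replicated-list peaks. The summit offset of each peak in bp, also deposited, was used to place summits.

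Genes and starts came from GENCODE M21, and a peak counted with an overlap of at least 1 bp. The genes named were every H3K4 writer and eraser; of each other family the 2 with the highest fold enrichment and the 2 widest; members without a peak in any list; up to 6 with separate promoter domains; and of each partner list the unoccupied members, the strongest and the widest. Any further gene was named with its values already known. The members and lists were chosen with earlier results of these data known. Overlaps and joined domains were checked on simulated intervals against bedtools 2.31.1. Python 3.11.15, numpy 2.4.6, pandas 2.3.3, pysam 0.24.0 and matplotlib 3.10.9 were used. The alternatives tried were a -log10 q of at least 5, the 3 remaining lists, windows of 500 and 2000 bp, the longest transcript, gaps of 0 and 3000 bp, the nearest peak, other definitions of writers and erasers, and CpG bounds of 0.5 and 0.7. Starts of all transcripts and RefSeq starts were added after seeing the data. With no read depth, no interval for counting error could be set.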

Additional observations from a re-analysis of the deposited data

How the results depend on the processing

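The share of members with a promoter peak, 98.6%, became 100% with a window of 2000 bp or with RefSeq mRNA starts, and 94.4% with the longest transcript only, which left Brd3, Hdac7, Kdm4c and Kdm6b without one. The share of all genes with the longest transcript or the wider window is not given here. For the members other than writers and erasers the share of 98.3% became 100% with a window of 2000 bp and 93.1% with the longest transcript. It was 98.3% with the writers and erasers without Kmt2e and Setd7, and 98.2% with Kdm2a and Kdm2b added to the erasers, because the number of genes changes. The median width of members, 2279 bp, was 1884 bp with no gaps joined and 2547 bp with gaps of 3000 bp. That of writers and erasers, 2783 bp, was 2324 and 2981 bp under the same settings, and 2755 to 2862 bp with 1 pool left out. That of the other members, 2177 bp, was 1740 bp with no gaps joined, 1967.5 bp with the longest transcript, and 2120 to 2369 bp with 1 pool left out. Of the members 52 had a high-CpG promoter, and 25 with windows of 2000 bp, 59 with windows of 500 bp, 46 with the longest transcript, 38 with a CpG bound of 0.7 and 57 with 0.5; the cause was not tested. The count occupied in all 4 lists, 70, ran from 67 to 71. The shares and medians not given here stayed within the spread between pools, which for the median fold enrichment of members was 21.4 in pool G and 15.5 in pool H. No paired analysis was possible because there is 1 condition and no test between groups of samples. With 2 pools, 1 donor record and no read depth, differences between pools cannot be given an error, and fold enrichments were set against the median of their own list.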
